A study of Mus musculus with 6 samples.

Results

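The genes of interleukin-15 (Il15), of the chains of its receptor (Il15ra, Il2rb and Il2rg) and of the kinase Jak3 were examined in mouse macrophages challenged with the fungus Candida albicans. They were found by name, 5 of the 54532 genes in the table of deposited values. The libraries came from 3 samples of wild type (WT) macrophages, called libraries 1 to 3, and 3 samples of progranulin knockout (PGRN KO) macrophages, called libraries 4 to 6, all of strain C57BL/6J. The article states that its PGRN KO mice were bought from the Jackson Laboratory and its WT mice from Chongqing Medical University. Genotype and source of the mice therefore cannot be told apart. According to the labels the cells were taken from the peritoneal cavity, cultured overnight at 2000000 cells per well and exposed to 1 fungal cell per macrophage for 6 hours, in WT and PGRN KO alike, so that no unchallenged library was analysed here. The article instead describes the sequenced cells as derived from bone marrow, at another ratio of fungus to cells, and the labels were followed. Progranulin is missing from every cell of the knockout mice, not from macrophages alone, and how many mice stand behind each library was not given in the sources used here, so that p-values measure only the spread between these samples, which may be technical.

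IL-15 is a cytokine of the common gamma chain family, known for keeping natural killer cells and memory CD8 T cells alive. It is usually not released freely but held on the surface of macrophages and dendritic cells by its private alpha chain, IL-15Ra, and shown to neighbouring cells that carry the beta chain (Il2rb) and the gamma chain (Il2rg), which is called trans-presentation. The beta chain is shared with the IL-2 receptor, and the gamma chain with the receptors of IL-2, IL-4, IL-7, IL-9 and IL-21. The alpha chain holds the cytokine, whereas JAK1 on the beta chain and JAK3 on the gamma chain start the signal, which runs mainly through STAT5.

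The 6 libraries held 15996786 to 17551619 fragments. Grn, which encodes progranulin, was at 323 to 337 FPKM in WT and was read by 1, 0 and 1 fragments in PGRN KO libraries 4 to 6, as the labels say. FPKM are fragments per kilobase of gene and scaled to the size of the library, so that levels of different genes can be set side by side. The length used is that of the whole gene model, 2261 bases for Il15 and 4446 for Il15ra. Levels and ratios between genes therefore depend on it, whichever transcripts were present. All 8 defining markers of macrophages had a mean of at least 1 FPKM, and they summed to 11618 to 12561 FPKM in WT and 10445 to 14377 FPKM in PGRN KO, almost wholly from Lyz2, Cd14 and Cd68. Adgre1, which encodes F4/80, was at 162 to 195 FPKM and overlapped between genotypes, as did Cd14, Cd68 and Fcgr1. Mertk was higher in PGRN KO without overlap, at 1.14 to 1.56 FPKM in WT and 2.91 to 3.84 FPKM in PGRN KO. Lyz2 was also higher without overlap, but narrowly (means of 5745 and 6666 FPKM). Csf1r (means of 32.5 in WT and 24.7 FPKM in PGRN KO) and Itgam (50.3 and 42.9 FPKM) were lower without overlap. The 6 markers of large peritoneal macrophages summed to 7.19 to 7.71 FPKM in WT against 9.38 to 10.1 FPKM in PGRN KO, a difference that came mainly from Icam2 (means of 3.10 and 5.10 FPKM). Gata6, the defining factor of these cells, overlapped between genotypes at 3.78 to 5.07 FPKM, and the other 4 markers, among them Timd4, were at or below 0.204 FPKM and had lower means in PGRN KO.

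Il15 (ENSMUSG00000031712, chromosome 8, 82331632 to 82403222, minus strand, GRCm38) was at 2.09, 2.93 and 1.45 FPKM in WT libraries 1 to 3. Its values were 9.78, 6.96 and 10.2 FPKM in PGRN KO libraries 4 to 6. Each PGRN KO library thus lay above each WT library, and the lowest PGRN KO value was 2.38 times the highest WT value. The mean was 2.16 ± 0.744 FPKM in WT against 8.98 ± 1.76 FPKM in PGRN KO (SD, n = 3 each), a ratio of 4.17. On the log2(FPKM + 1) scale, which understates changes of genes with low FPKM, the difference was 1.67 ± 0.21 (SE). All SEs of log2 differences given here are those of limma, which moderates the variance of each gene towards that of genes of like level. Il15 rested on 59 to 98 fragments in WT and 298 to 399 in PGRN KO. The WT libraries varied by 34.5% of their mean, where counting error alone would give 11.3%. In such bulk samples fewer cells of a type and less RNA per cell cannot be told apart.

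Il15ra (ENSMUSG00000023206, chromosome 2, 11705290 to 11734317, plus strand), which encodes the chain that presents the cytokine, was at 3.48, 3.32 and 2.80 FPKM in WT libraries 1 to 3. In PGRN KO libraries 4 to 6 it was at 16.2, 12.05 and 11.97 FPKM. Here too the groups were far apart, the lowest PGRN KO library being at 3.44 times the highest WT library. The mean was 3.20 ± 0.353 FPKM in WT against 13.4 ± 2.44 FPKM in PGRN KO, a ratio of 4.19 and a log2 difference of 1.77 ± 0.14 (SE), from 218 to 259 fragments in WT and 920 to 1250 in PGRN KO. Among the 8882 genes tested across the table, Il15ra stood 9th and Il15 16th from the top by log2 fold change. The study itself picked Il15ra from these libraries, and all 5 genes were chosen with the difference between WT and PGRN KO known, so that their values are given as a description, without p-values.

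The start of Il15ra is shown because its transcript was higher together with that of its ligand, and because transcription of both genes is known to be induced by interferons. RefSeq promoter windows (GRCm38.p6, 250 bases before to 50 bases after a start site) were found for Il15ra, which has an upstream and a downstream start, for Il2rg and for Jak3. Windows for Il15 and Il2rb were not analysed here. In the stretches below, all on the plus strand of chromosome 2, capitals mark matches to AANNGAAA, the core letters recognised by interferon regulatory factors, on either strand, and in the last stretch a longer run, in which AANNGAAA is followed at once by NNGAA. The stretch before the downstream start holds no match.
Il15ra before the upstream start, chr2:11705043-11705289: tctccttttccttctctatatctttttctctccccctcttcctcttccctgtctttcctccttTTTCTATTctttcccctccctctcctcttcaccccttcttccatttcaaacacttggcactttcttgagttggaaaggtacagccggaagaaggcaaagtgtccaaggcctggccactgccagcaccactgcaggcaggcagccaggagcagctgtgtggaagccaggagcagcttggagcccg
Il15ra before the downstream start, chr2:11705579-11705711: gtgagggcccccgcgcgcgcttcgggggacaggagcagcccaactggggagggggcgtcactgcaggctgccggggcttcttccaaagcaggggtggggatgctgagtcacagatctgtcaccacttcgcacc
Il15ra after the downstream start, chr2:11705730-11705759: taaagcaaAAGCGAAAGCGAAtactcctta

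The last stretch lies in the first annotated exon of the downstream start, and its match begins 27 bases into the transcript. AANNGAAA was present in both windows of Il15ra and in that of Il2rg, and in 23.9% of all 32851 promoter windows of this length. The longer run was present in the downstream window of Il15ra and in 1.21% of all windows, and it was searched for only after the sequence had been seen. No match was found in the windows of the 3 genes to 2 copies of GAAA with 2 bases between them, a motif that contains AANNGAAA (3.44% of all windows), to TTCNNNGAA, the letters of STAT sites (8.30%), or to the NF-kB consensus (8.46%). A match describes letters, not a site in use.

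Il2rb (ENSMUSG00000068227, chromosome 15, 78479256 to 78495271), the beta chain through which the signal is given, was low in both genotypes. It was at 2.24, 2.13 and 2.18 FPKM in WT libraries 1 to 3 and at 2.29, 1.97 and 1.90 FPKM in PGRN KO libraries 4 to 6. The groups overlapped, PGRN KO library 4 being the highest of the 6 libraries, and the means were 2.19 ± 0.0578 and 2.05 ± 0.206 FPKM. The log2 difference was -0.06 ± 0.09 (SE), on 135 to 170 fragments per library.

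Il2rg (ENSMUSG00000031304, chromosome X, 101264378 to 101268255), the common gamma chain, was the most abundant of the 5 transcripts. It was at 72.01, 79.4 and 71.2 FPKM in WT libraries 1 to 3 and at 61.9, 57.3 and 70.2 FPKM in PGRN KO libraries 4 to 6. All PGRN KO libraries lay below all WT libraries, but library 6 only narrowly, and the log2 difference was -0.23 ± 0.11 (SE), or -0.31 without that library. A predicted gene, Gm20489, covers Il2rg on the same strand, shares 28.7% of its sequence words of 31 bases and is listed at 0, so that the level of Il2rg depends on how fragments in the shared bases were counted.

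Jak3 (ENSMUSG00000031805, chromosome 8, 71676296 to 71690575), the kinase bound to the gamma chain, was at 3.33, 3.45 and 3.46 FPKM in WT libraries 1 to 3. Its values were 3.91, 3.85 and 4.16 FPKM in PGRN KO libraries 4 to 6. The groups did not overlap, although the ratio of the means was only 1.16 and the log2 difference 0.17 ± 0.08 (SE). Jak3 overlaps Insl3 on the same strand by 1362 bases and shares 8.29% of its sequence words, mainly with that gene, which was at or below 1.87 FPKM.

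**Figure D1:**
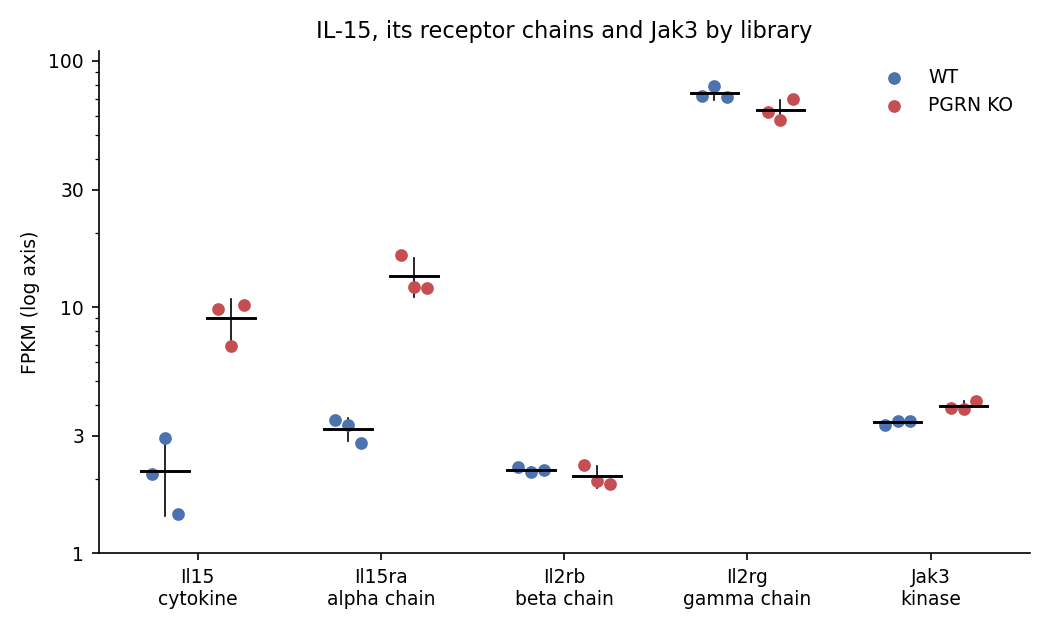
FPKM of the 5 genes in each library on a log axis. Points are libraries, horizontal bars are means of 3 libraries and vertical lines are ± 1 SD; Il15 and Il15ra lie at 1.45 to 3.48 FPKM in WT and at 6.96 to 16.2 FPKM in PGRN KO, whereas the means of Il2rb, Il2rg and Jak3 in PGRN KO are 0.940, 0.850 and 1.16 times those in WT.

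Of the 5 genes, all of which passed the filter on low values, 2 were past a limma adjusted p of 0.05, both of them higher in PGRN KO. Of all 8882 tested genes, 24.2% were past this threshold, 10.4% higher and 13.8% lower. Groups were fully separate for 4 of the 5 genes, 3 higher and 1 lower, against 48.8% of all tested genes (21.2% higher, 27.6% lower), and the median log2 difference of the 5 was 0.17 against -0.03 for all tested genes. Since the genes were chosen with these results known, nothing is read from these counts. Higher genes made up 42.8% of the calls as the values were deposited and 60.3% on a TPM scale, so that the balance of directions in the background depends on scaling.

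The order of levels differed between genotypes. In WT it ran from Il2rg (mean 74.2 FPKM) to Jak3 (3.41), Il15ra (3.20), Il2rb (2.19) and Il15 (2.16). The values of Jak3 and Il15ra overlapped between libraries, as did those of Il2rb and Il15, so that these neighbours could not be ranked. In PGRN KO the order ran from Il2rg (63.1 FPKM) to Il15ra (13.4), Il15 (8.98), Jak3 (3.97) and Il2rb (2.05). Each of these was above the next in all 3 libraries, without overlap. Among all tested genes the mean level of Il15ra stood at percentile 33.0 in WT and 71.2 in PGRN KO, and that of Il15 at 21.9 and 61.8, while Il2rg stood at 92.8 and 91.9.

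For trans-presentation the balance of cytokine and alpha chain was computed in each library. The ratio of Il15 to Il15ra in FPKM was 0.5998, 0.884 and 0.516 in WT libraries 1 to 3. It was 0.603, 0.578 and 0.853 in PGRN KO libraries 4 to 6. The ratios of the groups overlapped, with means of 0.666 ± 0.193 and 0.678 ± 0.152, and the difference of 0.0113 was smaller than the spread within either group. With so few libraries this does not show that the ratio was the same, and leaving out single libraries moved the difference from -0.0763 without PGRN KO library 6 to 0.120 without WT library 2. Within a genotype the libraries highest in the cytokine were not those highest in the alpha chain, since WT library 2 and PGRN KO library 6 led for Il15 and WT library 1 and PGRN KO library 4 for Il15ra.

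The balance of the alpha chain with the signalling chains was different in each genotype. The ratio of Il15ra to Il2rb was 1.55, 1.56 and 1.28 in WT libraries 1 to 3 and 7.09, 6.11 and 6.29 in PGRN KO libraries 4 to 6. The ratio of Il2rg to Il15ra was 20.7, 24.0 and 25.4 in WT and 3.81, 4.76 and 5.86 in PGRN KO, again without overlap. In contrast, the ratio of Il2rg to Il2rb, the chains that together form the signalling receptor, was 32.1, 37.3 and 32.6 in WT and 27.0, 29.1 and 36.9 in PGRN KO, where the groups overlapped. These are ratios of transcripts, and protein was not measured here. For IL-15 protein, the study reports significantly more from PGRN KO than from WT bone marrow-derived macrophages, after heat-killed yeast and at a later time. It found no significant difference in IL-15 in the kidneys of infected mice.

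**Figure D2:**
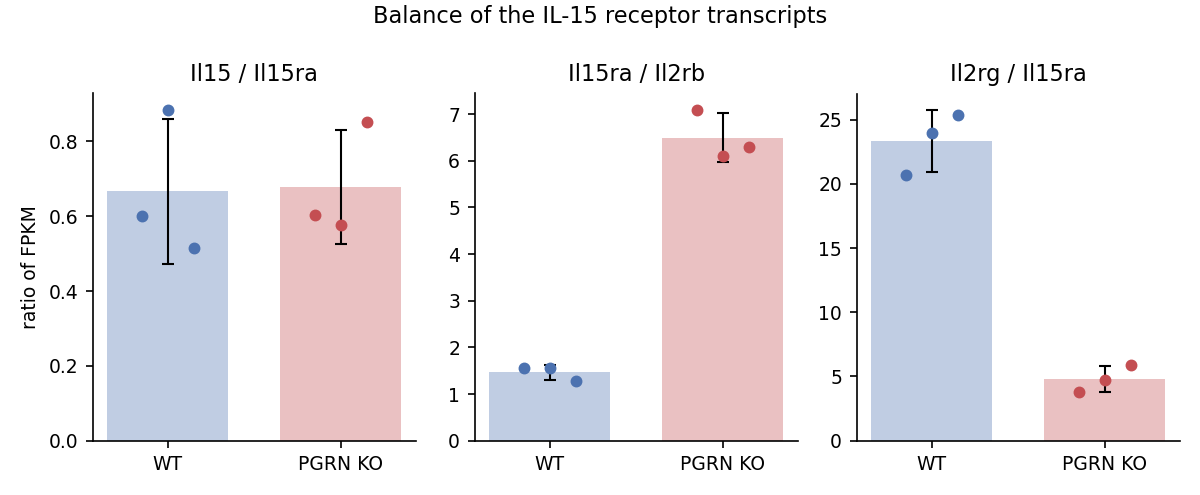
Ratios of FPKM between pairs of genes, with bars from 0 for the mean, lines for ± 1 SD and points for the 3 libraries of each genotype. Il15 to Il15ra overlaps between genotypes, Il15ra to Il2rb is 1.28 to 1.56 in WT and 6.11 to 7.09 in PGRN KO, and Il2rg to Il15ra averages 23.3 among WT and 4.81 among PGRN KO libraries.

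Next, the other cytokines that use the common gamma chain and their private receptor chains were examined. Of these 10 genes, 4 were expressed highly enough to be tested, and 1 passed as higher and 1 as lower in PGRN KO, where 24.2% of all tested genes passed (10.4% higher, 13.8% lower). Il21r, the private chain of the IL-21 receptor, rose from 8.78 ± 1.09 to 16.8 ± 1.96 FPKM (SD, n = 3 per genotype). This amounted to 0.86 ± 0.12 (SE) in log2 (limma adjusted p 0.00511), and Il21r passed in all 14 alternatives. Il4ra, the IL-4 receptor alpha chain, fell from 59.1 ± 0.763 to 43.2 ± 2.33 FPKM (log2 difference -0.44, limma adjusted p 0.0117), and its adjusted p became 0.0708, 0.0573 and 0.0582 when WT library 1, 2 or 3 was left out. Of the 4 genes, 1 passed when WT library 1, 2 or 3 was left out and 3 without PGRN KO library 6, where the 2151 calls over all 8882 tested genes became 713, 855 and 883, and 3668. Il7r was at 39.05 ± 0.790 and 33.3 ± 2.60 FPKM and did not pass. The cytokine transcripts Il2, Il4, Il7, Il9 and Il21 were all near 0, the highest mean being 0.205 FPKM for Il4 in WT, so that Il15 was the only member of this cytokine family with a mean of at least 1 FPKM.

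Il2ra, the private alpha chain of the IL-2 receptor and the relative of Il15ra, lies 12.1 kb from Il15ra on chromosome 2. It was at 1.78, 2.52 and 1.98 FPKM in WT libraries 1 to 3 and at 1.64, 1.62 and 1.18 FPKM in PGRN KO libraries 4 to 6. The values were lower in all PGRN KO libraries, but the difference did not pass (log2 fold change -0.32 ± 0.13 SE, limma adjusted p 0.121). On the other side of Il15ra, at a distance of 8.26 kb, Fbxo18, which encodes a DNA helicase with an F-box, rose from 2.55 ± 0.0736 to 5.50 ± 0.345 FPKM (log2 difference 0.87 ± 0.09 SE, limma adjusted p 0.00162), and it passed in all 13 alternatives in which it was tested.

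The nearest tested genes on each side of the 5 genes numbered 20, and 3 of them passed, against 24.2% of all tested genes, Fbxo18 and B3gnt3 higher and Tbc1d9 lower. B3gnt3, a glycosyltransferase gene 0.181 kb from Jak3, rose from 1.82 ± 0.185 to 3.39 ± 0.0647 FPKM (log2 difference 0.64, limma adjusted p 0.00508). Tbc1d9, 762.1 kb from Il15, fell from 36.5 ± 0.403 to 24.1 ± 3.07 FPKM (log2 difference -0.59, limma adjusted p 0.0117), a call that was lost on a TPM scale (0.0662) and when WT library 1, 2 or 3 was left out (0.0598, 0.0541 and 0.0537). The other neighbours of Il15, namely Gab1, Usp38 and Zfp330, had log2 fold changes of -0.25, -0.18 and -0.15 and did not pass. The neighbours of Il2rb and Il2rg, among them Rac2 (log2 fold change -0.16) and Foxo4 (0.05), did not pass either.

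To examine the machinery that takes up the signal of the receptor, 19 genes were considered, all of which were tested. In PGRN KO 1 was significantly higher and 3 were significantly lower, a share near the 24.2% of all tested genes that passed (10.4% higher, 13.8% lower), with a median log2 fold change of -0.23 against -0.03 over all tested genes. Jak1, the kinase of the beta chain, was at 63.4, 65.6 and 59.9 FPKM in WT libraries 1 to 3 and at 44.7, 44.1 and 34.0 FPKM in PGRN KO libraries 4 to 6. It fell by 0.62 on the log2 scale (SE 0.12, limma adjusted p 0.0146), while Jak3 was slightly higher. Stat5a, which encodes a STAT5 factor, fell from 22.8 ± 2.62 to 16.2 ± 2.01 FPKM (log2 difference -0.47, limma adjusted p 0.0353). Stat5b, which encodes the other STAT5 factor, was at 13.3 ± 0.107 and 13.6 ± 1.20 FPKM and did not pass (limma adjusted p 0.875). Syk, a kinase reported to bind the beta chain and better known here for signalling from fungal receptors, was also lower (log2 fold change -0.48, limma adjusted p 0.0239). Pik3cd, the leukocyte catalytic subunit of phosphoinositide 3-kinase, was the gene that rose, from 4.50 ± 0.104 to 7.77 ± 0.759 FPKM (log2 difference 0.67 ± 0.10 SE, limma adjusted p 0.00509), and it passed in all 14 alternatives.

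These counts depended on single libraries. Of the 19 genes, 1 passed when WT library 1, 2 or 3 was left out in turn and 10 passed without PGRN KO library 6. Over all 8882 tested genes the 2151 calls became 713, 855 and 883 in the first 3 of these fits and 3668 in the last, so that the shift was not particular to these genes. Jak1 missed the threshold on a TPM scale (0.0621) and when WT library 1, 2 or 3 was left out (0.0697, 0.0685 and 0.0514), and Stat5a passed in 7 and Syk in 8 of 14 alternatives, with limma adjusted p up to 0.127 and 0.117. The adjusted p of Stat5a was 0.0968, 0.127 and 0.0794 when WT library 1, 2 or 3 was left out and 0.0878 without PGRN KO library 5, and that of Syk was 0.1004, 0.0939 and 0.0820 when WT library 1, 2 or 3 was left out.

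Genes induced by STAT5 or acting as brakes on cytokine receptors were then examined, of which 11 of 12 were tested. None was significantly higher and 2 were significantly lower by limma on FPKM, against 10.4% and 13.8% of all tested genes, while 1 was higher and 3 were lower at an unadjusted p under 0.05, and limma voom on fragments called 1 higher and 2 lower. Cish, a feedback inhibitor typical of STAT5, averaged 23.8 ± 2.24 FPKM in WT against 21.7 ± 1.04 FPKM in PGRN KO, and its difference did not pass (log2 fold change -0.13 ± 0.10 SE, limma adjusted p 0.380). Pim2, a survival kinase, fell from 3.51 ± 0.424 to 2.35 ± 0.186 FPKM (log2 difference -0.43, limma adjusted p 0.0281). Ptpn2, a phosphatase that removes phosphate from JAK and STAT proteins, fell from 30.6 ± 2.28 to 22.7 ± 0.790 FPKM (log2 difference -0.42, limma adjusted p 0.0187). Pim2 passed in 6 of 13 alternatives and Ptpn2 in 10 of 14. The count of 2 became 0 without WT library 1, WT library 2 or PGRN KO library 5, 1 without WT library 3 or PGRN KO library 4, 5 without PGRN KO library 6 and 0 on a TPM scale. Over all 8882 tested genes the 2151 calls became 713, 855 and 883 without WT library 1, 2 or 3 and 3668 without PGRN KO library 6.

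**Figure D3:**
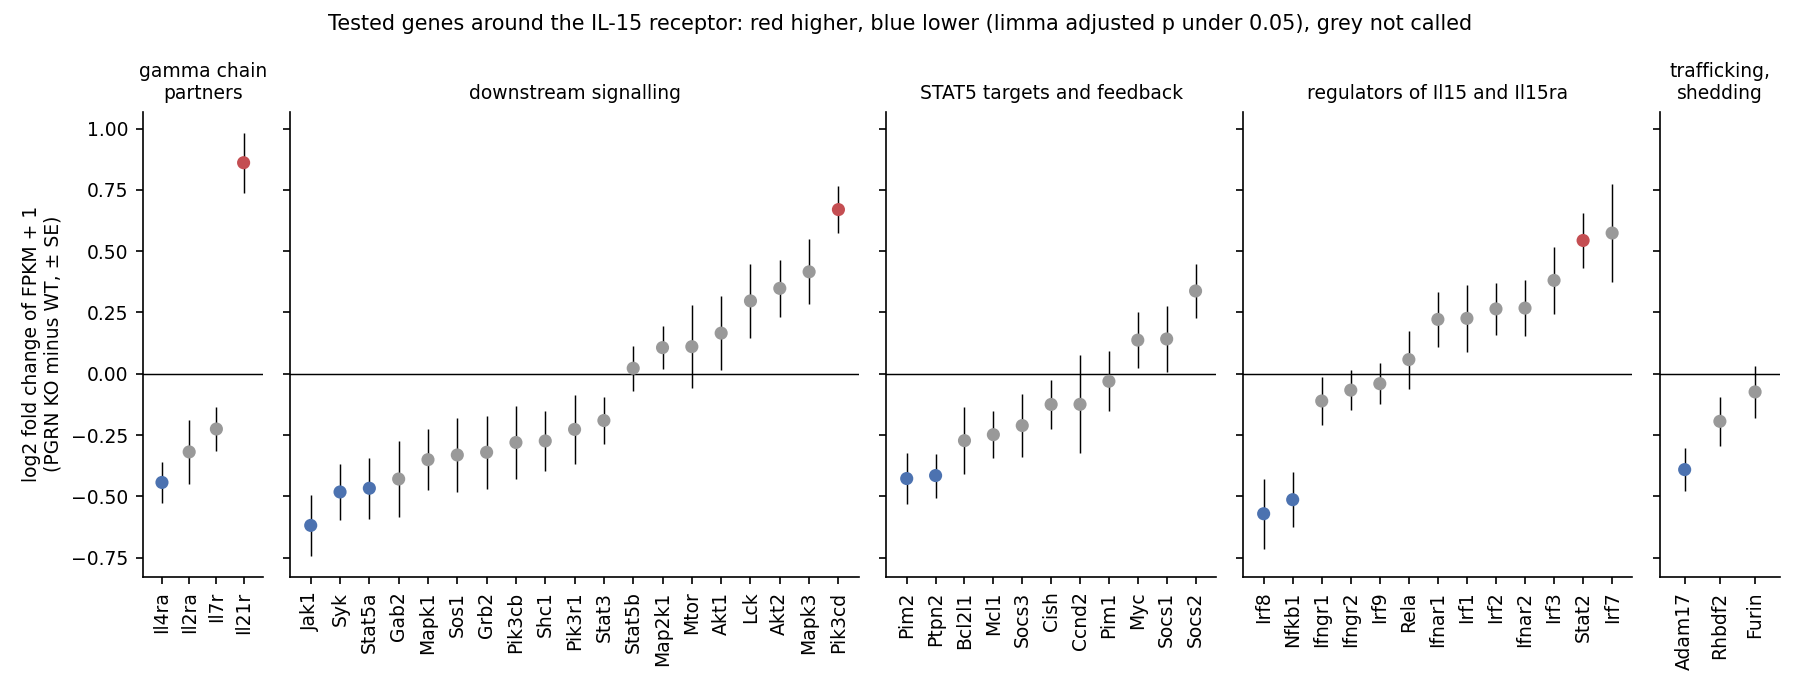
Log2 fold change (PGRN KO minus WT, on FPKM + 1) of each tested gene around the IL-15 receptor, in 5 groups of genes, with lines for ± 1 SE. Red genes were called higher and blue genes lower at a limma adjusted p of 0.05; Il21r, Pik3cd and Stat2 lie highest among the called genes, and Jak1 and Irf8 lowest.

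Factors known to control transcription of Il15 and Il15ra were examined as a group of 13 genes, mainly interferon receptors and the factors they act through. All were tested, 1 passed as higher and 2 as lower in PGRN KO, a share near the 24.2% of all tested genes that passed, and the median log2 fold change was 0.22 against -0.03 over all tested genes. At an unadjusted limma p under 0.05, 4 were higher and 2 were lower. Stat2, a factor of the type I interferon response, was at 44.5, 46.2 and 41.1 FPKM in WT libraries 1 to 3 and at 72.3, 64.9 and 57.1 FPKM in PGRN KO libraries 4 to 6, without overlap. It rose from 44.0 ± 2.57 to 64.8 ± 7.61 FPKM (log2 difference 0.54, limma adjusted p 0.0157). Irf1, the factor best known for binding the Il15 promoter, was at 81.5, 96.5 and 81.1 FPKM in WT libraries 1 to 3 and at 108.6, 84.5 and 111.8 FPKM in PGRN KO libraries 4 to 6. PGRN KO library 5 thus lay among the WT libraries, and Irf1 did not pass (log2 fold change 0.23 ± 0.14 SE, limma adjusted p 0.265). The largest rise of the group was that of Irf7, from 116.1 ± 10.7 to 177.3 ± 48.5 FPKM, without overlap. It did not pass (log2 difference 0.57 ± 0.20 SE, limma adjusted p 0.0775). Irf2 and Irf3 (log2 fold changes of 0.26 and 0.38) were also higher without overlap and did not pass. Irf9 (-0.04) overlapped and did not pass.

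In the same group, Irf8, a factor of macrophage identity, fell from 54.7 ± 2.51 to 36.9 ± 6.65 FPKM (log2 difference -0.57, limma adjusted p 0.0293), and Nfkb1, a subunit of NF-kB, from 85.2 ± 5.69 to 59.5 ± 6.68 FPKM (log2 difference -0.51, limma adjusted p 0.0193). The receptor chains Ifnar1, Ifnar2, Ifngr1 and Ifngr2 had log2 fold changes of 0.22, 0.27, -0.11 and -0.07 and did not pass. The count of 3 genes became 0 without each WT library in turn and 5 without PGRN KO library 6. In the same fits the 2151 calls over all 8882 tested genes became 713, 855 and 883, and 3668. Stat2, Irf8 and Nfkb1 reached limma adjusted p of 0.0529 to 0.102 in the 3 fits without a WT library. Nfkb1 also missed the threshold on a TPM scale (0.0737), and Irf8 with a correction for gene length (0.0641) and without a filter on low values (0.0754).

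For the handling of the complex at the cell surface, 3 genes were considered. Adam17, a protease known to shed the alpha chain from the surface, was at 25.3, 25.8 and 24.1 FPKM in WT libraries 1 to 3 and at 19.3, 20.0 and 17.4 FPKM in PGRN KO libraries 4 to 6. It fell by 0.39 on the log2 scale (SE 0.09, limma adjusted p 0.0217), while Rhbdf2, which guides ADAM17 to the surface, and Furin, which activates it, had log2 fold changes of -0.19 and -0.07 and did not pass. Of the 3, none was significantly higher and 1 was significantly lower, against 10.4% and 13.8% of all tested genes. At an unadjusted limma p under 0.05 none was higher and 1 was lower, and voom called none higher and 1 lower. The call of Adam17 was lost on a TPM scale (0.131) and when WT library 1, 2 or 3 was left out (0.108, 0.0980 and 0.0680) or PGRN KO library 4 (0.0547).

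Genes whose pattern over the 6 libraries was most like that of Il15 were sought among 7787 tested protein-coding genes, by the root mean square difference of log2(FPKM + 1) after subtracting the mean of each gene. Nearest were Gbp3 (0.116), Ifit3b (0.122), Ch25h (0.137), Ifit3 (0.137) and Cmpk2 (0.147). For Il15ra they were Iigp1 (0.0863), Ifi44 (0.0889), Rnf225 (0.0956), Cmpk2 (0.102) and Tnfsf10 (0.115). Gbp3, Ifit3b, Ifit3, Cmpk2, Iigp1 and Ifi44 are known as interferon-induced genes, and Cmpk2 was named for both. Il15 and Il15ra differed from each other by 0.228, so that 26 of these genes were nearer to Il15 than its alpha chain was, and 15 were nearer to Il15ra than the cytokine was. As the genotypes are far apart for all of these genes, the measure mainly compares the size of that difference, and it is given as a description over 6 libraries.

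**Figure D4:**
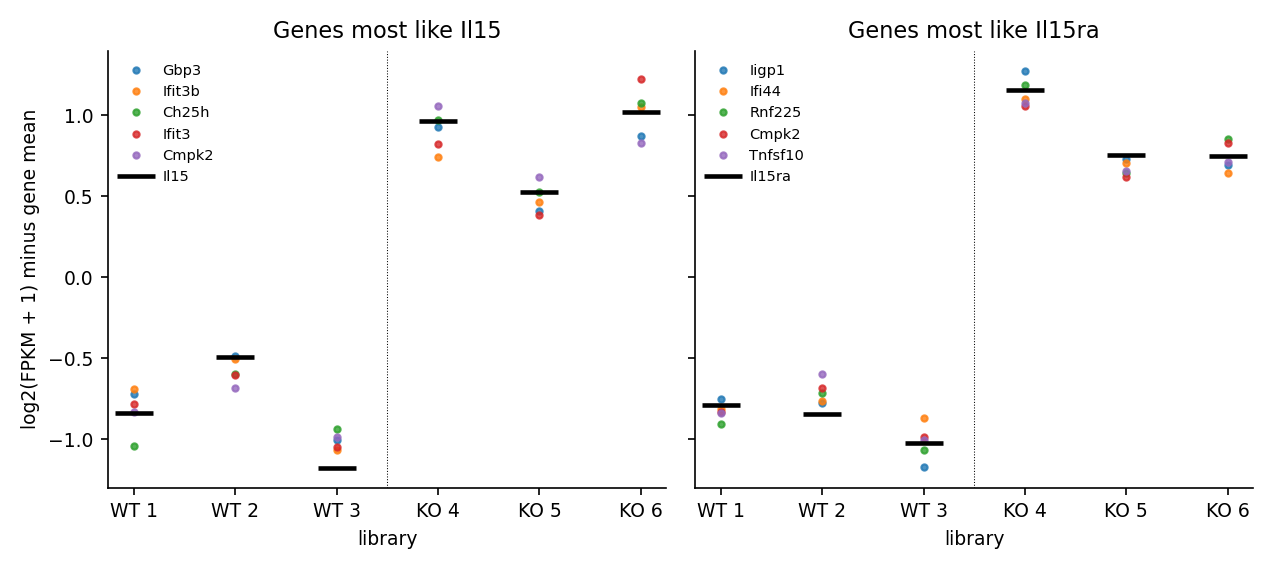
Log2(FPKM + 1) minus the mean of each gene in the 6 libraries, for Il15 (left, black bars) and Il15ra (right, black bars) and the 5 genes nearest to each (points). All genes lie below 0 in WT and above 0 in PGRN KO, Il15 is lowest in WT library 3, and Il15ra is highest in PGRN KO library 4.

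Since Il2rb and Jak3 are abundant in natural killer, T and B cells, markers of other cells were examined beside these genes. The 7 markers of natural killer cells summed to 1.04 to 1.23 FPKM in WT against 1.19 to 2.81 FPKM in PGRN KO. None had a mean of at least 1 FPKM, and Ncr1 and Klrb1c were at or below 0.0878 and 0.0749 FPKM. Only Ncr1 and Klrb1c had lower means in PGRN KO. Gzma was higher without overlap, at 0.269 to 0.297 FPKM in WT and 0.517 to 0.920 FPKM in PGRN KO. The 7 markers of T cells summed to 2.36 to 3.50 and 3.37 to 5.68 FPKM, with Cd3e at or below 0.220 FPKM. All 7 had higher means in PGRN KO. Cd3d, Cd3e, Cd4, Cd8a and Cd28 did not overlap between genotypes, whereas Trac and Cd3g did. The 5 markers of B cells summed to 4.65 to 5.73 FPKM in WT against 17.6 to 22.6 FPKM in PGRN KO, without overlap, mainly from Ighm (means of 3.48 and 13.4 FPKM) and Cd79a (0.960 and 3.78 FPKM), while Ms4a1, which encodes CD20, was at or below 0.383 FPKM. The 6 markers of mast cells summed to 2.29 to 3.19 FPKM in WT against 9.72 to 13.99 FPKM in PGRN KO. This came mainly from Tpsb2 (means of 1.08 and 5.14 FPKM) and Cma1 (0.789 and 4.21 FPKM), while Kit had a lower mean in PGRN KO (0.345 and 0.210 FPKM).

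Dendritic cells, the other cells known for trans-presentation, were examined with 6 markers, which summed to 27.4 to 34.6 FPKM in WT against 15.9 to 19.3 FPKM in PGRN KO, opposite in direction to Il15 and Il15ra. Nearly all of this came from Ccr7, a chemokine receptor that activated macrophages can also express, with means of 28.9 (WT) and 16.6 FPKM (PGRN KO). Flt3 was at or below 0.361 FPKM and Cd209a was listed at 0 in every library. The members went different ways. Xcr1 (means of 1.16 in WT and 0.388 FPKM in PGRN KO) and Flt3 were also lower. Zbtb46 (0.550 and 0.698 FPKM) and Clec9a (0.0361 and 0.0560 FPKM) had higher means in PGRN KO. The 7 markers of neutrophils summed to 48.8 to 53.2 and 21.5 to 26.5 FPKM, almost wholly from S100a8, with Ly6g listed at 0, and the 6 markers of fibroblasts or mesothelial cells to 1.05 to 1.17 and 1.88 to 3.38 FPKM. Of these 6, Dcn, Col1a1 and Col1a2 had higher means in PGRN KO. The means of Krt19 (0.156 in WT and 0.121 FPKM in PGRN KO), Msln (0.103 and 0.0705) and Upk3b (0.0169 and 0.00546) were lower. B cell, mast cell, large peritoneal macrophage and fibroblast or mesothelial cell sums differed between genotypes in the same direction as Il15, Il15ra and Jak3. Natural killer and T cell sums overlapped, but most markers of both lists had higher means in PGRN KO. The part of any of these cells in the differences of Il15, Il15ra and Jak3 was not tested.

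**Figure D5:**
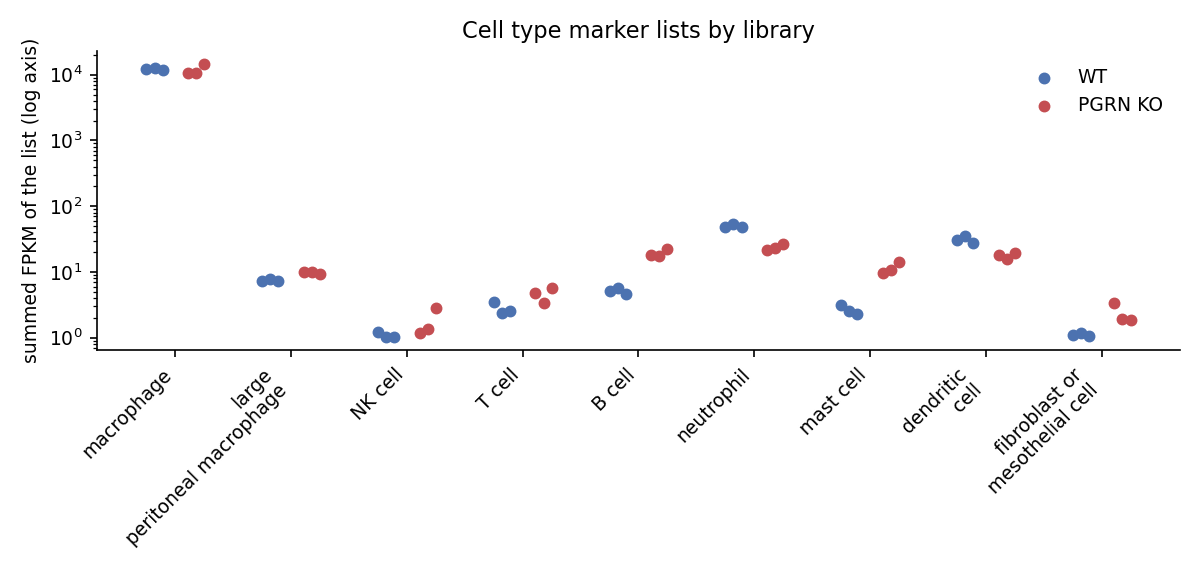
Summed FPKM of each list of cell type markers in each library, on a log axis. Macrophage markers sum to at least 10445 FPKM in every library, B cell, mast cell, large peritoneal macrophage and fibroblast or mesothelial cell lists are higher and neutrophil and dendritic cell lists lower in PGRN KO, and the lists of natural killer and T cells stay below 6 FPKM.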

How the data were processed

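Polyadenylated RNA of 3 WT and 3 PGRN KO macrophage samples was sequenced. The authors removed poor reads and adaptors, aligned to the mouse genome, counted fragments per gene and deposited FPKM. The methods name HISAT and HTSeq, whereas the submitters' processing notes name HISAT2 2.0.5, featureCounts 1.5.0-p3 and GRCm38. All 5 genes have the same coordinates in GENCODE M21 of GRCm38. The strand setting of the counter was not given in the sources used here. FPKM times gene length gave whole fragments (tolerance 0.001) for 100% of values above 0. The library size, worked out from the deposited FPKM and gene lengths, was 0.925 to 1.09 times the sum of recovered fragments. The values therefore appear to have been rescaled between libraries before deposit.

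The 8882 genes averaging 1 FPKM or more over the libraries were tested as log2(FPKM + 1) with limma 3.58.1 in R 4.3.3 (variance trend, no covariates, two-sided, Benjamini-Hochberg, threshold 0.05), after a test on simulated data. DESeq2, which the study ran on counts, was not used. The 5 genes and all lists were chosen with earlier results of these data known. Named genes were the 5, Il2ra, Jak1, Stat5a, Stat5b, Cish, Irf1 and Adam17, up to 4 called genes per list and direction, the nearest 2 tested genes on each side and the 5 genes of most similar pattern. Others named from the lists, and all cell markers, were named after their values were seen. Alternatives were a pseudocount of 0.1, a TPM scale, quantile normalization, limma voom on recovered fragments, a loess correction for gene length (span 0.5), other filters, sample weights and leaving out each library. Some genes of the lists are not reported here and were left out of their counts and sums.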

Additional observations from a re-analysis of the deposited data

How the results depend on the processing

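No paired analysis was possible because replicate numbers differ between the genotypes. The 5 genes kept their direction under all alternatives computed for them. Other filters and sample weights were not among these, so their direction with sample weights was not examined. The log2 difference of Il15 (1.67) became 2.04 with a pseudocount of 0.1 and 2.12 with voom, and that of Il15ra (1.77) 2.03 and 2.06, since a smaller pseudocount shrinks low values less. That of Jak3 (0.17) became 0.21 with a pseudocount of 0.1, 0.22 with voom, 0.22 on a TPM scale and 0.24 with the correction for gene length. Without single libraries the ranges were 1.503 to 1.85 for Il15, 1.63 to 1.84 for Il15ra, -0.12 to -0.03 for Il2rb, -0.31 to -0.17 for Il2rg, 0.14 to 0.19 for Jak3 and -0.0763 to 0.120 for the difference in the ratio of Il15 to Il15ra.

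The 2151 called genes (921 higher, 1230 lower) became 1366 (603 and 763) without a filter and 4225 (1757 and 2468) with sample weights, with 608 lower on a TPM scale and 529 higher at a mean FPKM of at least 5. Without single libraries there were 713 to 3668 (331 to 1438 higher, 382 to 2230 lower). The 4 called signalling genes became 2 without a filter and 10 with sample weights, and 1 to 10 without single libraries. The 2 called STAT5 target genes became 0 on a TPM scale, 4 with the correction for gene length, 1 without a filter, 1 at a mean FPKM of at least 5 and 6 with sample weights, and 0 to 5 without single libraries. The 3 called regulators became 5 with quantile normalization, 6 with the correction for gene length and 8 with sample weights, and 0 to 5 without single libraries. The called gamma chain partners numbered 1 to 3 without single libraries, and the called trafficking gene was lost on a TPM scale (0) and numbered 0 to 1 without single libraries. The cause of these shifts was not tested. Fits without a library also have fewer samples, and other filters change the number of genes tested. Over 44 other named genes, 528 comparisons kept direction and call, 52 lost and 19 gained a call, and 5 changed sign, none of them past the threshold: Cyth4 (0.0017 with the correction for gene length), Med12 (0.0559 with sample weights, -0.508 to 0.0671 without single libraries), Stat5b (-0.0298 to 0.0882 without single libraries) and Foxo4 (-0.00026 to 0.1002 without single libraries). Depth limits Il15 most, with as few as 59 fragments in a library.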
